A study of Mus musculus with 91 samples.

Results

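The DNA replication genes are 40 genes, chosen by name, whose products mark and open replication origins, copy the DNA and supply its building blocks. They were measured in sorted cells of the fetal mouse gonad on Affymetrix Mouse Gene 1.0 ST arrays. Each gene was read from a transcript cluster (the set of probes the array holds for a gene) that is annotated to this gene alone. All 40 were found among the 21789 clusters of this kind, and only *Pcna* had 2 clusters, of which the one with the higher mean over the sorted cell arrays was used. Values are log2 intensities, so a difference of 1 is a change of 2-fold, and they are compared between groups of arrays and never between genes.

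Gonads of XX and XY embryos were collected on 3 consecutive days (E11.5 to E13.5), and each lineage, sex and stage has 3 arrays. Supporting cells, the precursors of Sertoli and pre-granulosa cells, were sorted by *Sry-EGFP*, except that the XY sorts of the last 2 stages used *Sox9-ECFP*. Germ cells were sorted by *Oct4-EGFP*, and the embryos of these 3 transgenic lines descended from CD-1 and C57BL/6J mice. XY interstitial and XX stromal cells were a further sort, and endothelial cells came from *Flk1-mCherry* embryos on CD-1. A further 18 arrays hold *αSma-EYFP* cells (FVB by the labels, mixed FVB and CD-1 by the methods), a population that overlaps with other lineages and was therefore kept out of the comparison of lineages. Each array is a separate sample of sorted cells from gonads pooled over 1 or more litters. Where necessary, cells of several sorts were combined in a sample. The p-values rest on the spread between such samples. The *Oct4-EGFP* gonads were sorted with the mesonephros attached, and the E11.5 *Flk1-mCherry* gonads with a part of it. In supporting cells the reporter and the sex cannot be told apart at E12.5 and E13.5, nor the reporter and the stage in XY cells between E11.5 and E12.5. Only the E11.5 comparison of supporting cells has the same reporter in both sexes.

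Replication begins with licensing, in which the origin recognition complex (*Orc1*, *Orc2*, *Orc5* and *Orc6* here), *Cdc6* and *Cdt1* load the helicase *Mcm2* to *Mcm7* onto origins, while geminin (*Gmnn*) blocks *Cdt1* and so prevents a second round. The kinase *Cdc7* with its activator *Dbf4*, together with *Cdc45*, *Mcm10* and the GINS complex (*Gins1*, *Gins2* and *Gins3*), turns the loaded helicase on, after which primase, the DNA polymerases α, δ and ε, the clamp *Pcna* and its loader, the single-strand binding protein RPA, *Fen1*, *Lig1* and the enzymes of nucleotide supply copy the strands. Many of these genes are transcribed in waves of the cell cycle, so their level in a population can follow the share of cycling cells. In the fetal gonad XX germ cells pass through a last S phase and enter meiosis, and XY germ cells stop dividing in mitotic arrest. By earlier work that the paper cites, supporting cells of both sexes are in arrest at E11.5. Only those of XY gonads then divide again, while those of XX gonads do not. An array averages over all cells of its sample, so fewer cells that express a gene and less RNA per cell cannot be told apart.

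Promoter sequences were read for 33 members from RefSeq (GRCm38.p6, 250 bases before to 50 after the start of transcription), 40 promoters in all. The letters TTTCCCGC, TTTGGCGC, TTTGCCGC or TTTCGCGC, forms of the site bound by E2F factors, were found on either strand in 13 of these 40 promoters, or 32.5%, against 2.26% of all 32851 promoters in the table. The 13 genes were *Cdc6*, *Cdt1*, *Gins3*, *Lig1*, *Mcm3*, *Mcm5*, *Mcm6*, *Mcm7*, *Orc1*, *Pola1*, *Pold1*, *Pole2* and *Rfc3*. The letters GGGCGG stood in 67.5% of the members' promoters against 35.7% of all, CCAAT in 55% against 37.4%, and TTTGAA in 20% against 17.9%. These shares are a description, since a match is not a bound site, and the different motifs may share promoters. The 3 stretches below are shown because their genes had an E2F match before the start and passed the test between the sexes at E13.5 in both supporting and germ cells. Capitals mark the E2F letters, and each stretch is written along the strand of its gene.
*Cdc6*, chr11:98907983-98908050, plus strand: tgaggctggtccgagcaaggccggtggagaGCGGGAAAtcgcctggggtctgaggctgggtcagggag
*Mcm5*, chr8:75109326-75109397, plus strand, 2 overlapping matches: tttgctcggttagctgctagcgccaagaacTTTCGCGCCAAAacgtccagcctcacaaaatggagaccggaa
*Orc1*, chr4:108579397-108579453, plus strand, ending at the last base before the start: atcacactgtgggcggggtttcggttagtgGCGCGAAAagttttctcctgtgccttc

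The level of the replication genes followed the lineage first. For each array the mean over the 40 members was taken after each member was centred on its own mean over the 90 sorted cell arrays. The 6 germ cell groups stood highest, at 0.82 in E12.5 XX, 0.79 in E11.5 XY, 0.77 in E11.5 XX and E12.5 XY, 0.67 in E13.5 XX and 0.35 in E13.5 XY germ cells. Interstitial, stromal and *αSma-EYFP* cells lay between -0.26 and 0.23, and endothelial cells between -0.42 and -0.05. XX supporting cells stood lowest, at -0.77, -0.83 and -0.97 in stage order, and XY supporting cells went from -0.54 through -0.11 to -0.24. The SD over the 3 arrays of a group was at most 0.19, in E11.5 XY endothelial cells, where 1 array lay at -0.31 and the others at 0.01 and 0.03. Neighbouring groups in this order mostly overlapped, but every germ cell array outside E13.5 XY lay above every array of the other lineages, and every XX supporting array lay below every array outside the supporting lineage.

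**Figure D1:**
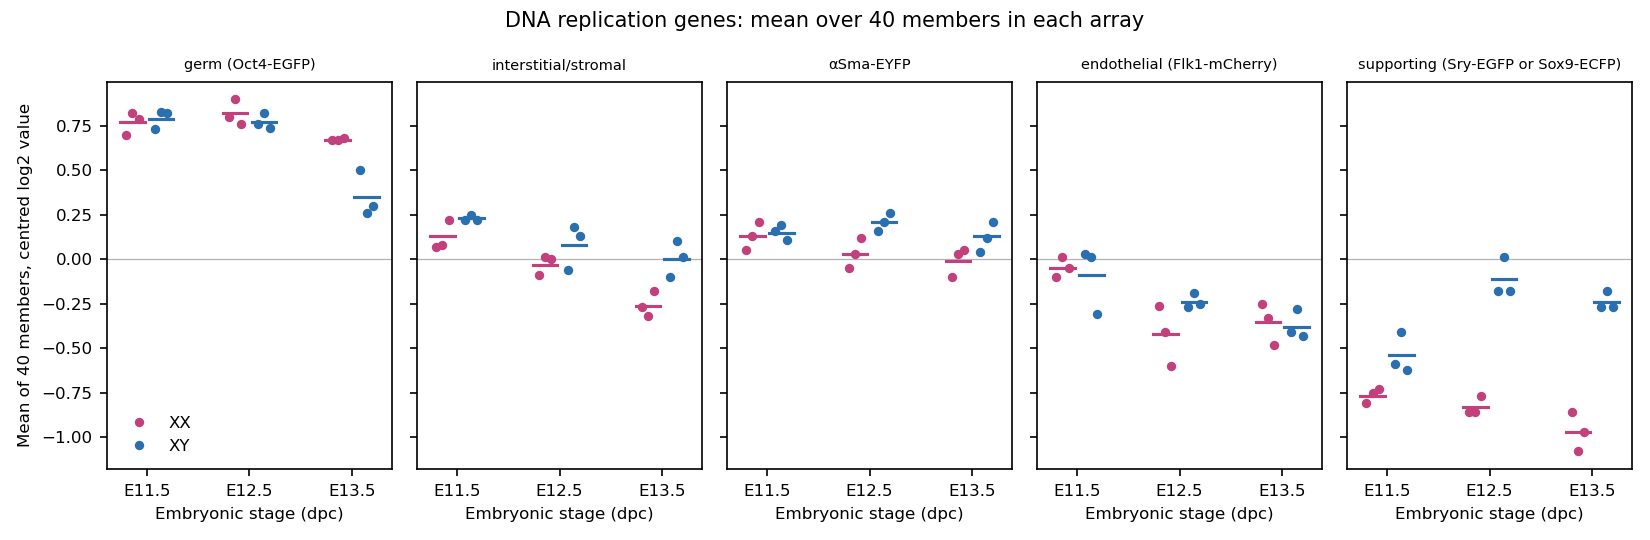
Mean of the 40 DNA replication genes in every array (points) and in each group of 3 (lines), as the log2 value after each gene was centred on its mean over the 90 arrays, by lineage, sex and stage. The germ cell groups have the highest means, of which E13.5 XY cells have the lowest at 0.35, and XX supporting cells are lowest of all, between -0.77 and -0.97.

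Taken one by one, 35 of the 40 members had their highest group mean in germ cells and 38 had their lowest in supporting cells, 34 of them in XX supporting cells. The exceptions at the top were 4 members highest in E11.5 XY interstitial cells and *Orc1*, highest in E11.5 XX supporting cells. The widest range between group means was 3.67 for *Pole*, the catalytic subunit of DNA polymerase ε, which went from 6.47 in E11.5 XX supporting to 10.14 in E13.5 XX germ cells. *Prim1*, the catalytic subunit of primase, had a range of 3.61 between E13.5 XX supporting and E13.5 XX germ cells. The narrowest was 0.81 for *Cdt1*. All 40 members reached the log2 value of 6 that was required for testing, and their group means ran from 6.47 to 12.57.

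Against the mean of the other 3 lineages of the same sex and stage, germ cells had most members higher. An adjusted p under 0.05 in limma was taken as the limit for this and all following counts, except where an unadjusted p is named. The share of all clusters at an unadjusted limit is not given here. Counts at that limit are therefore not read as results about the members. In XX germ cells 35 members at E11.5, 37 at E12.5 and 37 at E13.5 were higher, against 25.3%, 27% and 26.3% of the 16820 clusters tested. In XY germ cells 36, 33 and 28 members were higher, against 27%, 26% and 27% of clusters. The median member lay 1.31 above the other lineages in E12.5 XX and 0.62 above them in E13.5 XY germ cells.

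In XX supporting cells the reverse held, with 37 members lower at E11.5, 36 at E12.5 and 34 at E13.5, against 22.2%, 17.6% and 15.5% of clusters. Their median lay between -0.99 and -0.94. XY supporting cells had 36 lower members at E11.5 (20.3% of clusters) but 19 at E12.5 (19.6%) and 16 at E13.5 (18.5%), and without replicate 1 of E13.5 XY supporting cells the last count was 10. These comparisons include germ cells, where the members are high. Against interstitial and endothelial cells alone, the counts in XY supporting cells were 5 at E12.5 and 5 at E13.5, with medians of 0.01 and -0.07, while the medians of XX supporting cells still lay at -0.83, -0.62 and -0.67. The share of all clusters lower against this reference is not given here. The counts of 5 are therefore not read as a result about the members.

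Between the sexes, supporting cells showed the widest change of the replication genes. At E11.5, with the same reporter in both sexes, 7 members were higher in XY cells (5.67% of clusters were) and 1 was lower (3.92%), with a median difference of 0.23 over the members and -0.00 over all clusters. At E12.5, 30 members were higher (16.9%) and 1 was lower (13.8%), with a median of 0.77. At E13.5, 30 were higher (14.7%) and 1 was lower (14.7%), with a median of 0.74. The lower member was *Orc1* each time. The 7 members higher at E11.5 were *Gins1*, *Gmnn*, *Mcm3*, *Pold1*, *Pole*, *Rrm1* and *Rrm2*, and all 7 were higher again at both later stages. Without replicate 1 of E11.5 XX supporting cells the E11.5 count was 4. Of the 30 members higher at E12.5, 27 were among the 30 higher at E13.5, which is 90% of each list. As 30 of all 40 members were on each later list, a large share of any list of members would be on them too. The matching shares over all clusters are not given here, so neither overlap is read as a result about the members.

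All roles took part. Of 13 licensing genes 9 were higher in XY supporting cells at E12.5 and 8 at E13.5, of 7 genes that start the helicase 5 and 6, of 8 polymerase and primase genes 6 and 7, of 9 genes of the clamp, its loader, RPA, flap removal and ligation 7 and 6, and of the 3 genes of nucleotide supply all 3 at both stages. Only 6 members passed the test at neither stage, namely *Cdt1*, *Gins3*, *Mcm6*, *Orc5*, *Rfc3* and *Rfc5*. For *Mcm6*, a subunit of the same hexamer as the called *Mcm2*, *Mcm3*, *Mcm4*, *Mcm5* and *Mcm7*, the difference was 0.09 at E12.5 (95% interval -0.22 to 0.41) and 0.33 at E13.5 (0.02 to 0.64). For *Rfc5*, a clamp loader subunit, the interval at E12.5 ran from 0.12 to 1.08, which includes differences as large as those of called members.

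Among members higher in XY supporting cells, the largest differences at E12.5 were in geminin (1.72), the *Cdc7* activator and ribonucleotide reductase. *Gmnn* read 6.87, 6.75 and 6.51 in the E13.5 XX arrays and 8.72, 8.91 and 8.72 in the E13.5 XY arrays, a difference of 2.07 ± 0.16 (standard error, adjusted p = 4.9e-16). At E11.5 it read 6.91, 7.03 and 7.19 in XX and 7.34, 8.04 and 7.45 in XY cells, a difference of 0.57 (adjusted p = 0.012). The sexes did not overlap at either stage, and the gap was wider at E13.5. *Dbf4* read 7.24, 7.41 and 7.67 in E12.5 XX and 9.17, 9.58 and 9.36 in E12.5 XY cells, a difference of 1.93 ± 0.19 (adjusted p = 3.6e-12), and at E13.5 it read 8.07, 7.12 and 7.92 against 9.22, 9.16 and 9.19. At E11.5 the sexes overlapped in *Dbf4*, with 7.37 to 8.18 in XX and 7.70 to 8.70 in XY cells.

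*Rrm2*, the regulated subunit of ribonucleotide reductase, read 7.64, 7.14 and 7.78 in E12.5 XX and 9.21, 9.56 and 9.43 in E12.5 XY supporting cells, a difference of 1.88 ± 0.17 (adjusted p = 5.3e-14). Its partner *Rrm1* read 8.62, 7.81 and 8.53 against 9.85, 10.22 and 10.11, a difference of 1.74 ± 0.17. Both differed between the sexes at E11.5 too, by 1.05 for *Rrm2* and 1.28 for *Rrm1* (adjusted p = 3.5e-06 and 5.5e-08). *Tyms*, which makes thymidylate, differed less, by 0.75 at E12.5 and 0.88 at E13.5.

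Among the licensing and fork genes, *Mcm3* read 7.78, 7.12 and 7.46 in E13.5 XX and 8.76, 8.84 and 8.93 in E13.5 XY supporting cells, a difference of 1.38 ± 0.17. *Pole* read 6.66, 6.57 and 6.44 against 7.76, 8.02 and 8.04, a difference of 1.39 ± 0.15 (adjusted p = 3.4e-11). DNA ligase I (*Lig1*), which seals the lagging strand, had the smallest adjusted p of all members at E13.5, 3.4e-17, with 7.99, 8.05 and 7.78 in XX and 9.10, 9.17 and 9.33 in XY cells. None of these arrays overlapped between the sexes. At E11.5 *Lig1* was 8.43, 8.68 and 8.58 in XX and 8.60, 8.72 and 8.61 in XY cells, which overlapped. The helicase subunit *Mcm5* read 8.14, 7.70 and 7.51 in XX and 8.89, 9.29 and 8.91 in XY cells at E13.5, a difference of 1.25. *Gins1* (1.09 at E13.5), *Prim1* (1.30), *Rfc4* (1.05), *Fen1* (1.05 at E12.5), *Pole2* (0.92 at E12.5) and *Pcna* (0.84 at E12.5) differed in the same direction.

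The change with stage lay mainly in XY supporting cells. From E11.5 to E12.5, 23 members rose in XY cells (12.6% of clusters) and *Orc1* fell (9.22%), with a median rise of 0.44. The largest rises were in *Dbf4* (1.24 ± 0.19), *Rfc4*, a clamp loader subunit (1.18 ± 0.24), and *Gmnn* (1.09 ± 0.16), and *Rpa2* (0.87), *Lig1* (0.70), *Pold2* (0.78), *Cdc45* (0.75), *Pole* (0.65), *Rrm2* (0.62) and *Tyms* (0.33) also rose. In the E11.5 XY arrays *Rfc4* read 6.77, 8.13 and 6.82, a wide spread, and in the E12.5 XY arrays 8.30, 8.58 and 8.37. The reporter changed from *Sry-EGFP* to *Sox9-ECFP* in the same step. From E12.5 to E13.5, with *Sox9-ECFP* at both stages, no member passed the test in limma (1.63% of clusters did), and 4 were lower at an unadjusted p under 0.05. In XX cells, sorted by *Sry-EGFP* throughout, 3 members passed from E11.5 to E12.5 (6.59% of clusters): *Pole* rose by 0.53, while *Orc1* fell by 1.02 and *Rpa1* fell by 0.46. Without replicate 2 of E12.5 XX supporting cells this count was 1. From E12.5 to E13.5 *Orc1* and *Lig1* passed in XX cells (1.5% of clusters), with falls of 1.33 and 0.59.

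The difference between the sexes itself changed between stages. It was larger at E12.5 than at E11.5 for 14 members (6.55% of clusters) and larger at E13.5 than at E11.5 for 13 (6.62%), and smaller for none. *Gmnn*, *Dbf4* and *Rfc4* had the largest changes, and *Lig1* the smallest adjusted p at E13.5, with an increase of 1.18 ± 0.13 (adjusted p = 3.0e-10). Without replicate 3 of E11.5 XY supporting cells the first count was 9.

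*Orc1*, the largest subunit of the origin recognition complex, ran against the other members. In XX supporting cells it read 10.21, 10.43 and 10.40 at E11.5, 9.11, 9.65 and 9.23 at E12.5 and 7.89, 8.40 and 7.70 at E13.5. In XY supporting cells it read 8.55, 8.72 and 9.22, then 7.42, 7.71 and 7.45, then 7.08, 7.28 and 6.92. Every XX array was thus above every XY array of its stage. It fell in both steps in XX cells and from E11.5 to E12.5 in XY cells, while the later XY change of -0.43 did not pass (adjusted p = 0.407). XY cells were lower by 1.52 ± 0.18, 1.81 ± 0.18 and 0.91 ± 0.18 at the 3 stages (adjusted p = 4.2e-09, 2.9e-12 and 5.6e-05). E11.5 XX supporting cells exceeded the mean of the other 3 lineages by 1.69 in *Orc1* (adjusted p = 2.4e-14), where 37 members were lower.

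*Orc1* also fell outside the supporting lineage, in XY interstitial cells from E11.5 to E12.5 by 1.04, in XX stromal cells from E12.5 to E13.5 by 0.79 and in *αSma-EYFP* cells from E11.5 to E12.5 by 0.98 in XX and 0.96 in XY cells. Germ cells held it between 9.22 and 9.47 in every group but E13.5 XY. In RefSeq (GRCm38.p6, chromosome 4) *Orc1* overlaps the splicing gene *Prpf38a* over 3632 bases and a long noncoding RNA over 15947 bases. The cluster of *Prpf38a* was lower in XY supporting cells too, by 0.60 at E11.5 and 0.73 at E12.5 (adjusted p = 0.009 and 3.7e-04), with a difference of -0.32 at E13.5 (adjusted p = 0.150). In E13.5 germ cells *Prpf38a* differed by 0.16, against -0.91 for *Orc1*. Whether signal from a neighbouring transcript enters the *Orc1* cluster was not tested. In all, 10 of the 40 members overlap another protein-coding gene.

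**Figure D2:**
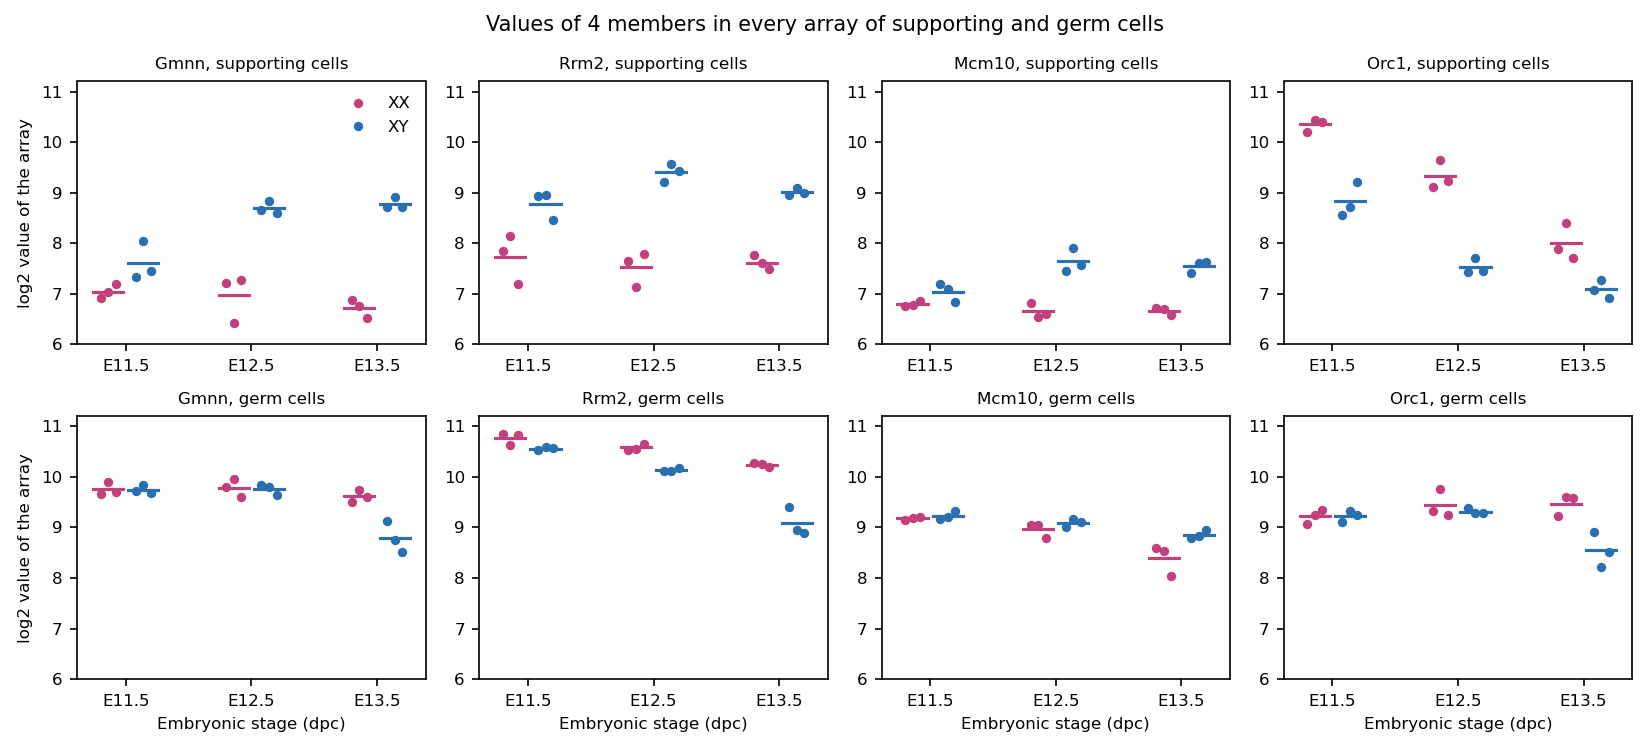
The log2 values of *Gmnn*, *Rrm2*, *Mcm10* and *Orc1* in each array (points, lines for the mean of 3) of supporting cells (upper row) and germ cells (lower row), XX and XY, at 3 stages. At E12.5 and E13.5 *Gmnn*, *Rrm2* and *Mcm10* are higher in XY supporting cells while *Orc1* is lower, and in germ cells the differences that passed the test are at E13.5, where *Mcm10* alone of the 4 is higher in XY cells.

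In supporting cells each of 25 listed mitosis genes was higher in XY at E12.5 and at E13.5 with medians of 2.61 and 2.58, beside 0.77 and 0.74 for the replication genes. At E11.5, 15 of the 25 were higher. Of 43 further replication genes 27 were higher and 1 lower at E12.5, and 23 were higher and 2 lower at E13.5. *Top2a*, which untangles replicated DNA, differed by 3.22 at E13.5 and *Dscc1*, a subunit of an alternative clamp loader, by 2.15, while *Orc4* was lower in XY cells, by 0.48. Of 21 genes that control entry into S phase, 10 were higher and 1 lower at E13.5. Cyclin A2 (*Ccna2*) read 6.77, 6.70 and 6.40 in XX and 9.57, 9.86 and 9.42 in XY supporting cells at E13.5. In the same arrays the inhibitor *Cdkn1b* (p27) read 12.21, 12.22 and 11.90 in XX and 9.38, 9.50 and 9.28 in XY cells. Of the 14 arrest genes only *Cdkn1b* and *Cdkn1c* were lower in XY cells at both stages. Others of the list had a higher mean in XY cells at E13.5, among them *Rb1*, *Rbl1*, *Lin37*, *Lin54* and *Cdkn2c*, and their tests are not given here.

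The mean log2 value of 18 markers of the supporting lineage was 8.45 to 8.91 in the supporting and 6.73 to 7.11 in the germ cell arrays of E12.5 and E13.5. This sets supporting cells apart from germ cells only, since the markers are not compared here with interstitial, stromal or *αSma-EYFP* cells. The mean log2 value of 13 germ cell markers was 5.97 to 6.95 in the 12 supporting arrays of E12.5 and E13.5, against 9.67 to 10.27 in the germ cell arrays, and at E13.5 *Ifitm3* and *Kit* were lower and *Dppa3* higher in XY supporting cells. The mean of 8 red blood cell markers was 6.26 to 6.94 in XX and 6.71 to 7.25 in XY supporting arrays of these stages, and at E12.5 3 of the 8 were higher in XY cells and 1 lower. Of 8 steroidogenic markers 6 were higher in XY supporting cells at E13.5. Of 12 genes of handling stress 6 were lower in XY cells at E13.5, among them *Fos* and *Jun*. The part of these differences in the results was not tested.

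In germ cells members passed the test between the sexes at E13.5 and at no earlier stage. No member passed the test in limma at E11.5 (0.202% of clusters did) or at E12.5 (4.48%), with 1 and 4 members at an unadjusted p under 0.05. At E13.5, 15 members were lower in XY germ cells (10.1% of clusters) and 1 was higher (10.9%), with a median difference of -0.35 over the members. The 15 were *Cdc6*, *Cdc7*, *Fen1*, *Gins1*, *Gins3*, *Gmnn*, *Lig1*, *Mcm5*, *Orc1*, *Pole*, *Pole2*, *Prim1*, *Prim2*, *Rfc3* and *Rrm2*. This count was 9 without replicate 1 and 8 without replicate 3 of the XX cells, and 8 without replicate 2 and 7 without replicate 3 of the XY cells. By role, 4 of 13 licensing genes, 3 of 7 helicase genes, 4 of 8 polymerase and primase genes, 3 of 9 clamp and lagging strand genes and 1 of 3 nucleotide genes were lower.

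*Rrm2* had the largest difference, with 10.28, 10.25 and 10.19 in E13.5 XX and 9.40, 8.96 and 8.90 in E13.5 XY germ cells, lower by 1.15 ± 0.17 in XY (adjusted p = 2.4e-07). *Gmnn* read 9.50, 9.75 and 9.61 against 9.13, 8.76 and 8.52, lower by 0.82 ± 0.16 (adjusted p = 7.4e-05). *Orc1* read 9.22, 9.60 and 9.58 against 8.92, 8.22 and 8.52, lower by 0.91 ± 0.18 (adjusted p = 9.1e-05). The sexes did not overlap in these 3 genes, and in each of them replicate 1 of the XY cells lay closest to the XX arrays. *Cdc6*, the loader that *Orc1* recruits, read 8.61, 8.26 and 8.37 against 8.10, 7.30 and 7.55, lower by 0.76 ± 0.18.

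The primase and polymerase ε subunits were lower as well. *Prim1* read 11.01, 10.91 and 10.84 in XX and 10.73, 10.06 and 9.81 in XY germ cells at E13.5 (adjusted p = 0.033), and *Pole2* read 7.84, 8.01 and 8.26 against 7.37, 6.85 and 7.48 (adjusted p = 0.010). *Gins1* read 9.97, 9.79 and 9.74 in XX and 9.44, 8.98 and 8.93 in XY cells, and was lower by 0.72 ± 0.24, *Rfc3* by 0.56 ± 0.17 and *Fen1* by 0.42 ± 0.15. The XY arrays spread more widely than the XX arrays in *Prim1*, from 9.81 to 10.73. *Lig1* showed a small and even difference, with 10.18, 10.26 and 10.27 in XX and 9.89, 9.77 and 9.88 in XY cells.

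*Mcm10*, which joins the helicase as origins fire, was the exception in E13.5 germ cells, higher in XY. It read 8.59, 8.54 and 8.04 in E13.5 XX and 8.79, 8.84 and 8.96 in E13.5 XY cells, a difference of 0.47 ± 0.12 (adjusted p = 0.002). At E12.5 it had read 9.04, 9.05 and 8.80 in XX and 9.01, 9.16 and 9.10 in XY cells. From E12.5 to E13.5 it fell by 0.58 ± 0.12 in XX cells (adjusted p = 3.7e-04), and the XY change of -0.23 ± 0.12 did not pass (adjusted p = 0.346). The change of its sex difference between these stages was 0.35 ± 0.17 and did not pass (adjusted p = 0.356). *Rpa1*, the large RPA subunit, had the same sign without passing, at 0.33 (adjusted p = 0.075).

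In XY germ cells 14 members fell from E12.5 to E13.5 (2.98% of clusters) and none rose, with a median of -0.39. In XX germ cells 6 members fell (5.84%) and *Gins3* rose (4.92%), with a median of -0.11. *Mcm4*, *Rpa1* and *Tyms* fell in both sexes, which is 50% of the XX and 21.4% of the XY list. The matching share over all clusters is not given here. *Mcm2*, *Mcm10* and *Cdt1* passed in XX and not in XY cells, and *Rrm2* (fell by 1.05), *Cdc6* and *Gmnn* (each fell by 0.96), *Orc1*, *Pole2*, *Cdc45*, *Rrm1*, *Mcm3*, *Pcna*, *Rfc3* and *Fen1* in XY and not in XX cells. Passing in a single sex is not a difference between the sexes. Tested as a change of the sex difference over this step, only *Gmnn* passed, as given below. In XY cells *Rrm2* had read 10.12, 10.12 and 10.18 at E12.5, *Gmnn* 9.85, 9.80 and 9.64, and *Cdc6* 8.53, 8.72 and 8.59, all above the E13.5 XY arrays. *Mcm4*, a helicase subunit, read 10.27, 10.41 and 10.21 in E12.5 and 9.90, 9.86 and 9.68 in E13.5 XX germ cells. The XY count was 9 without either replicate 1 or 2 of the E12.5 XY arrays and 7 without either replicate 2 or 3 of the E13.5 XY arrays. The XX count was 3 without either replicate 1 or 2 of the E12.5 XX arrays and 2 without replicate 3 of the E13.5 XX arrays. From E11.5 to E12.5 no member passed in limma in XX (5.43% of clusters did) or XY germ cells (3.73%), with 6 and 2 at an unadjusted p under 0.05.

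*Gins3*, a GINS subunit, read 8.55, 8.57 and 8.50 in E12.5 XX and 9.04, 8.89 and 9.20 in E13.5 XX germ cells, a rise of 0.50 ± 0.14 (adjusted p = 0.013), and 8.61, 8.72 and 8.53 in E13.5 XY cells. *Rpa1* fell from 9.47, 9.61 and 9.58 to 8.84, 9.02 and 8.99 in XX cells and from 9.64, 9.77 and 9.86 to 9.12, 9.38 and 9.35 in XY cells. *Gins3* was the only member that passed as a rise in XX germ cells in this step, where 4.92% of all clusters rose.

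Tested as a change of the sex difference, 7 members differed more negatively at E13.5 than at E11.5 (4.37% of clusters), and none did at E12.5 (0.713%), where 1 had an unadjusted p under 0.05. The 7 were *Cdc6*, *Cdc45*, *Cdc7*, *Gmnn*, *Lig1*, *Orc1* and *Rrm2*. This count was 4 without replicate 1 of the E11.5 XX, replicate 3 of the E13.5 XX or replicate 3 of the E13.5 XY germ cells, and 3 without replicate 2 of the E13.5 XY cells. Between E12.5 and E13.5, a comparison added after values were seen, only *Gmnn* passed (1.5% of clusters were lower), with a change of -0.79 ± 0.23 (adjusted p = 0.033). At an unadjusted p under 0.05, 10 members were lower, and the share of all clusters at that limit is not given here. The count at the adjusted limit was 0 without replicate 1 or 3 of the E12.5 XX, 1 or 2 of the E12.5 XY, 2 or 3 of the E13.5 XX or 2 or 3 of the E13.5 XY arrays, 2 without replicate 2 of the E12.5 XX or 1 of the E13.5 XX arrays, and 3 without replicate 1 of the E13.5 XY arrays.

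Of the 30 members higher in XY supporting cells at E13.5, 12 were lower in XY germ cells, which is 40% of the first and 80% of the second list of 15. As 30 of all 40 members were on the first list, a large share of any second list of members would be on it too. Of all clusters tested, 1.76% were both higher in XY supporting and lower in XY germ cells, 12% of those higher in XY supporting and 17.4% of those lower in XY germ cells. The 12 members were *Cdc6*, *Cdc7*, *Fen1*, *Gins1*, *Gmnn*, *Lig1*, *Mcm5*, *Pole*, *Pole2*, *Prim1*, *Prim2* and *Rrm2*. The difference between the lineages was itself tested, and 27 members had a lower XY minus XX difference in germ than in supporting cells (13.6% of clusters), with a median of -0.97. *Gmnn* differed most, by -2.89 ± 0.23 (adjusted p = 2.0e-15), then *Rrm2* by -2.55 ± 0.23 and *Prim1* by -2.02 ± 0.36. *Orc1* was lower in XY cells of both lineages, by 0.91 in each, and its difference between them was -0.00 (95% interval -0.51 to 0.51). *Mcm10* was higher in XY cells of both lineages, and its difference between them, -0.41, did not pass (adjusted p = 0.057).

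**Figure D3:**
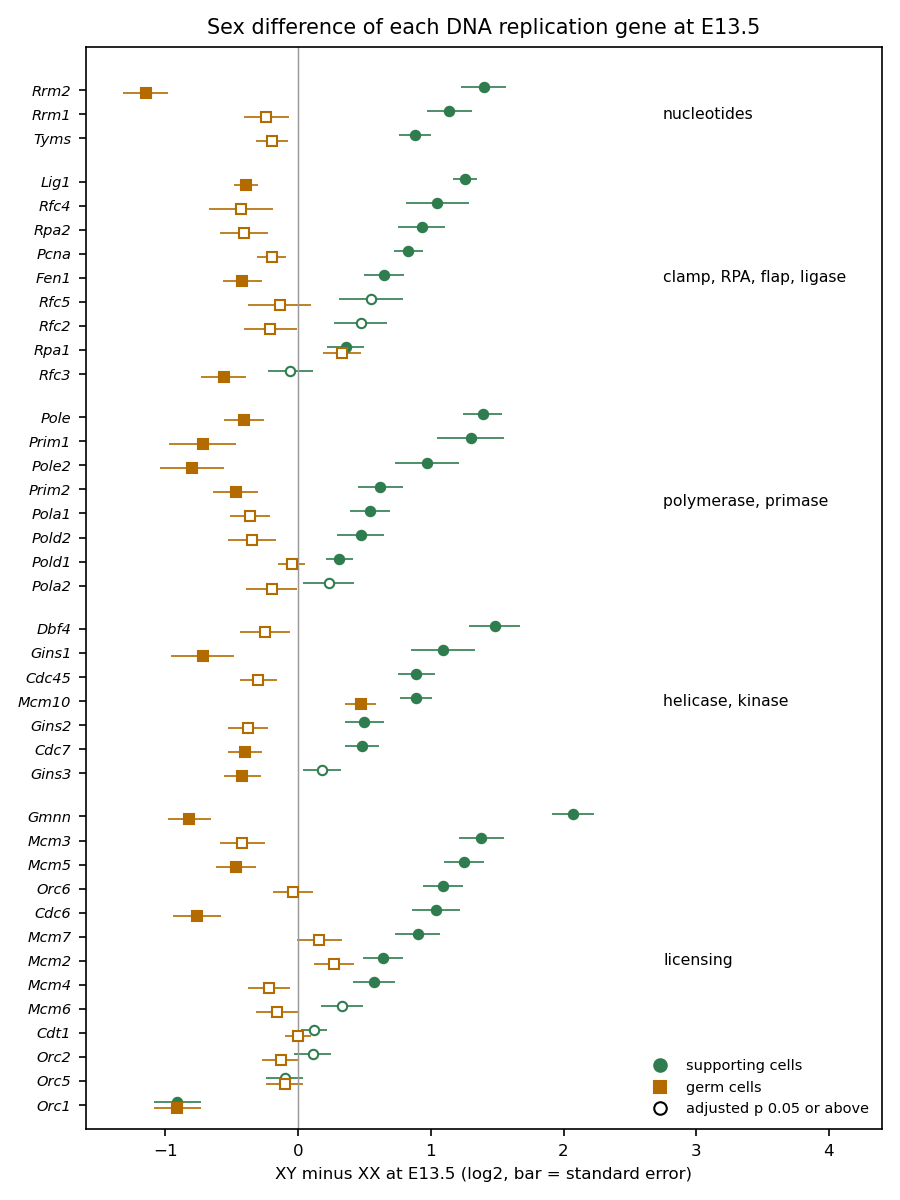
XY minus XX difference at E13.5 (log2, bars for the standard error) of each of the 40 members in supporting cells (circles) and germ cells (squares), grouped by role, with filled symbols where the adjusted p is under 0.05. Filled symbols lie to the right for 30 members in supporting cells and to the left for 15 in germ cells, with *Orc1* to the left in both and *Mcm10* to the right in both.

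Of 26 genes of meiotic entry 24 rose in XX germ cells from E12.5 to E13.5 and 24 were lower in XY than in XX cells at E13.5. *Stra8*, the gatekeeper of meiosis, read 7.56, 8.34 and 6.86 in E12.5 XX and 10.32, 10.25 and 10.47 in E13.5 XX cells, against 5.39, 5.59 and 5.46 in E13.5 XY cells. *Rec8*, the meiotic cohesin, reached 8.69, 8.86 and 8.96 in E13.5 XX cells, and *Meioc*, which keeps the meiotic program running, 9.81, 9.41 and 10.25, against 5.29 to 5.45 in E13.5 XY cells. The replication mean of these E13.5 XX arrays was 0.67, 0.67 and 0.68, below the 0.80, 0.90 and 0.76 of the E12.5 XX arrays. In XY cells, 11 of 13 tested male germ genes were higher than in XX cells at E13.5, and *Nanos2*, an RNA-binding regulator of the male germ line, read 9.47, 9.97 and 9.69. *Cdkn1b* read 8.33, 8.87 and 7.31 in E12.5 XY and 9.26, 9.21 and 9.40 in E13.5 XY germ cells, and its rise of 1.12 ± 0.31 passed the test (adjusted p = 0.017). Of the 14 arrest genes, 4 rose in XY (median 0.09) and 3 in XX germ cells (median 0.19) over this step, and none fell in either sex. At E13.5, 3 of the 14 were higher and 3 lower in XY than in XX germ cells. None of the 14 passed limma as a change of the sex difference from E12.5 to E13.5, and 2 had an unadjusted p under 0.05, 1 in each direction. The XY replication mean of these arrays was 0.50, 0.26 and 0.30.

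From E12.5 to E13.5, 9 of the 25 mitosis genes fell in XX and 5 in XY germ cells, and at E13.5 5 were higher and 1 lower in XY cells, with a median difference of 0.05. *Ccna2* read 10.63, 10.41 and 10.38 in XX and 10.69, 10.31 and 10.26 in XY germ cells at E13.5. Of the 43 further replication genes 14 were lower and 3 higher in XY cells of that stage, led by *Dscc1* (-1.14), *Ticrr*, which helps origins fire (-1.12), *Tipin*, a fork protection factor (-1.0), and *Tk1*, thymidine kinase (-0.91). Of the genes controlling S phase entry, *Ccnd1* (-1.46), *Ccne2* (-1.30) and *Ccne1* (-1.10) were lower and *Cdk6* (1.55), *Cdk4* (1.27) and *Skp2* (0.75) higher in XY cells. Among markers of other cells, 0 of 13 endothelial, 0 of 9 interstitial and 0 of 8 red blood cell markers passed between the sexes of E13.5 germ cells in limma (1, 0 and 0 at an unadjusted p under 0.05), and of 18 supporting cell markers only *Cst9* was higher, in XY cells.

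**Figure D4:**
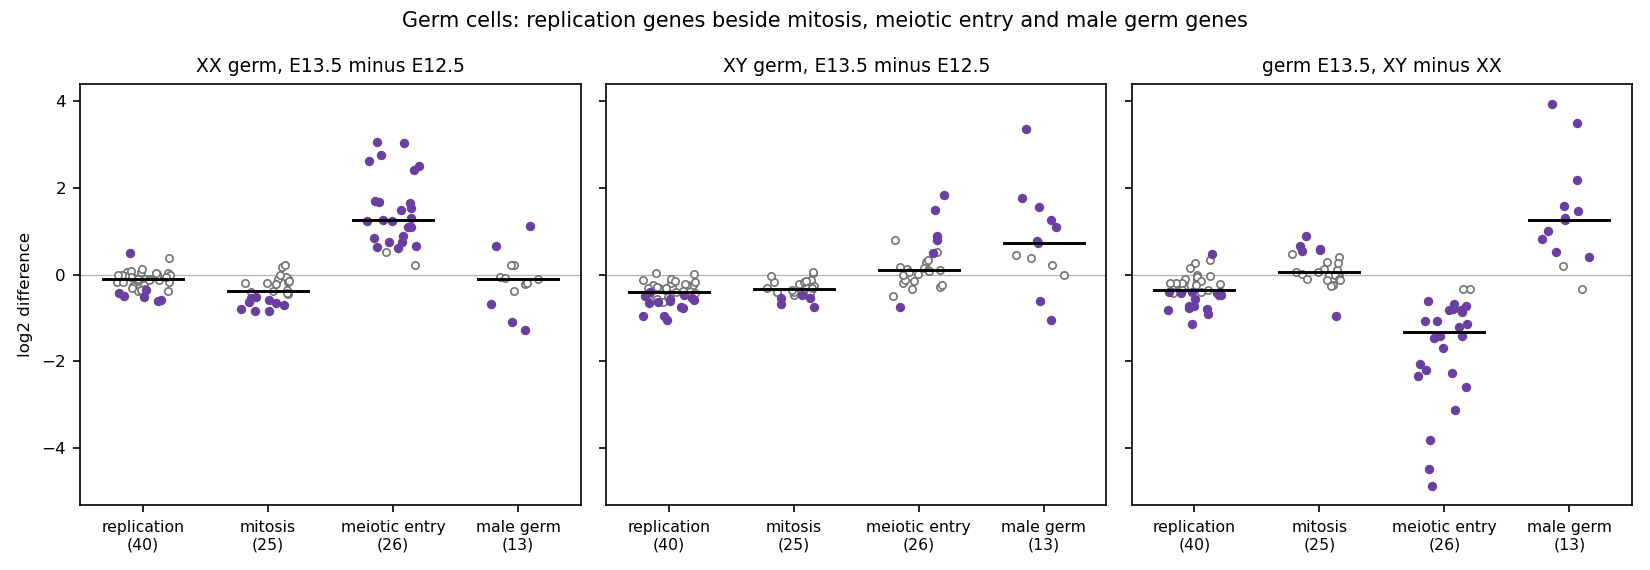
The log2 difference of every gene (points, filled where the adjusted p is under 0.05, lines for the median) of 4 lists in germ cells, from E12.5 to E13.5 in XX and in XY cells and between the sexes at E13.5. In XX cells 24 of 26 meiotic entry genes rise while the replication median is -0.11, and in XY cells the replication median is -0.39.

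In the other populations between 0 and 8 members passed between the sexes at a stage, with the most in E13.5 interstitial and stromal cells. In interstitial and stromal cells 0 members passed at E11.5 (0.238% of clusters, 2 members at an unadjusted p under 0.05), 3 at E12.5 (5.92%) and 8 at E13.5, all higher in XY (5.14%). The 8 were *Cdc6* (0.76), *Rrm2* (0.67), *Cdc45* (0.58), *Gmnn* (0.57), *Mcm3* (0.57), *Mcm2* (0.50), *Pole* (0.48) and *Mcm10* (0.47), and this count was 3 without replicate 1 or 2 of the XX or replicate 2 of the XY arrays. In the same comparison 23 of 25 mitosis genes were higher in XY cells and 7 of 8 steroidogenic markers were too, the part of which was not tested. At E12.5 *Mcm10* and *Cdc45* were higher and *Orc1* lower in XY interstitial cells. In endothelial cells 0, 1 and 0 members passed at the 3 stages (0.981%, 3.55% and 5.31% of clusters, 1, 8 and 1 members at an unadjusted p under 0.05), the 1 being *Lig1*. In *αSma-EYFP* cells 0, 1 and 0 passed (0.249%, 5.15% and 5.73%, with 1, 6 and 4 at an unadjusted p under 0.05), the 1 being *Mcm10*, higher in XY by 0.53.

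Across stages at most 2 members passed per step in stromal, interstitial and *αSma-EYFP* cells, and *Orc1* was among them in most steps with a call. Counts this small are not read as a result about the members. In XX stromal cells 2 members passed from E11.5 to E12.5 (2.03% of clusters), *Gmnn* and *Lig1*, and 1 from E12.5 to E13.5 (0.398%), *Orc1*, all lower with age. In XY interstitial cells 1 passed in the first step (3.62%), again *Orc1*, and 0 in the second (1.3%, 1 at an unadjusted p under 0.05). In *αSma-EYFP* cells *Orc1* and *Mcm10* fell in XX cells (2.23%) and *Orc1* in XY cells (4.7%) in the first step, and 0 passed in the second (0.291% and 1.13%, with 2 and 0 at an unadjusted p under 0.05).

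XX endothelial cells were the exception, with 10 members lower at E12.5 than at E11.5 (2.88% of clusters), led by *Gins1* (-0.94) and *Mcm3* (-0.75). The count was 6 without replicate 1, 2 without replicate 2 and 6 without replicate 3 of the E11.5 arrays, and 17 without replicate 1 and 2 without replicate 3 of the E12.5 arrays, and a part of the mesonephros was in the E11.5 sort. In the second XX step and in both XY endothelial steps 0 members passed (0.327%, 8.89% and 3.15%), with 3, 8 and 5 at an unadjusted p under 0.05. In XY endothelial cells at E13.5 all 8 steroidogenic markers were higher than in XX cells, and their part in the values of this sort was not tested.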

How the data were processed

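The authors amplified RNA from the sorted cells, hybridised it to the arrays and, by their methods, processed the scans in Partek Genomics Suite by RMA with quantile normalization, median polish and an adjustment for the probes' GC content and sequence. The deposited values are log2 intensities of 35557 transcript clusters on 91 arrays, of which 90 of sorted cells were used and 1 of a whole newborn mouse was not. Array medians ran from 6.56 to 6.81, and the number of arrays (3 a group) limits the precision. The reporter line of the interstitial and stromal cells is not reported here. By the methods 1 E11.5 XY endothelial array had a low yield of amplified RNA.

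Clusters that name 1 gene were kept (21789), and a cluster was tested when 2 or more arrays of any group of 3 lay at 6 or above (16820 clusters, or 16859 in the fit with *αSma-EYFP* cells). Symbols were updated through gene identifiers, and the genome build of the array annotation is not named, so clusters are given by name. The test was the moderated one of limma 3.58.1 (R 4.3.3, lmFit followed by eBayes), fitting a mean for every group of 72 arrays (48 residual degrees of freedom) or, for *αSma-EYFP* cells, of 90 (60), and p-values were adjusted by Benjamini-Hochberg over all clusters tested. The script was tested on simulated data. Changes of a sex difference were tested as contrasts of the same fit.

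The members and gene lists were chosen with earlier results of these data known, and the lists come from general knowledge. In each comparison of supporting or germ cells the text names, for each role, up to 2 called members with the largest difference and any called against the majority, with every array's value for those that a result turns on. In each further list it names up to 4 called genes, and always *Stra8*, *Rec8*, *Meioc*, *Nanos2*, *Cdkn1b* and *Ccna2*. Genes named beyond this were chosen after their values were seen. Alternatives were the normalization, the filter, the limits of the study (unadjusted p under 0.05 and fold over 1.5), the arrays fitted, the variance model, array weights, a replicate block, the clusters of a gene, each array left out and, chosen after seeing the data (as was the change of the germ cell sex difference from E12.5 to E13.5), interstitial and endothelial cells as the reference.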

Additional observations from a re-analysis of the deposited data

Results flagged for a closer look

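A difference between groups was found by the tests of changing sex differences. In supporting cells the XY minus XX difference of 14 members was larger at E12.5 than at E11.5, with the largest changes in *Dbf4* (1.63), *Rfc4* (1.19) and *Gmnn* (1.15), and that of 13 members was larger at E13.5 than at E11.5, led by *Gmnn* (1.5), *Rfc4* (1.46) and *Dbf4* (1.18). In germ cells 7 members had a more negative difference at E13.5 than at E11.5, led by *Cdc6* (-1.0), *Rrm2* (-0.94) and *Orc1* (-0.91), and 1 between E12.5 and E13.5, *Gmnn* (-0.79). At E13.5, 27 members had a lower sex difference in germ than in supporting cells, led by *Gmnn* (-2.89), *Rrm2* (-2.55) and *Prim1* (-2.02).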

How the results depend on the processing

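With 3 arrays a group the counts of members are the part of the results most open to change. Of 1346 alternatives to counts and medians 1252 left the result within 1.5 times of a count or within 0.09, the pooled SD, of a median. Of 1122 alternatives to single members 1023 kept the call, 99 lost it and 0 changed direction. Quantile normalization again gave 1 call in the E12.5 germ cell sex comparison and a median of 0.84 for E11.5 XY germ cells against other lineages. A filter at 7 gave 1 call in XX germ cells from E11.5 to E12.5. The study's limits gave 15 rising members in XY and 1 call in XX supporting cells from E11.5 to E12.5, 7 lower in XY germ cells at E13.5, 1 falling in XX germ cells, 5 and 4 lower in XY supporting cells than in other lineages at E12.5 and E13.5, 5 for the germ cell sex difference of E13.5 minus E12.5, 2 in interstitial and 6 in endothelial cells. A fit of all 90 arrays gave 1, 1 and 2 for the E12.5 germ cell sex comparison, the first XX germ cell step and that change of the sex difference. A fit of each lineage alone gave 4 for E11.5 supporting cells, 3 for E12.5 germ cells, 3 and 1 for the first XX and XY germ cell steps, 11 and 2 for the change of the germ cell sex difference from E11.5 and from E12.5, and 0 for endothelial cells. Array weights gave 1 for the second XY supporting step, 3 for E12.5 germ cells, 2 and 1 for the first XX and XY germ cell steps, 22 for the second XY germ cell step, 11 and 6 for the change of the sex difference, 13 for interstitial and 20 for endothelial cells. With interstitial and endothelial cells as reference, chosen after seeing the data, XY supporting cells had 5 and 5 lower members, the medians were -0.83, -0.62 and -0.67 in XX and -0.68, 0.01 and -0.07 in XY supporting cells, 0.81, 1.11 and 0.95 in XX germ cells and 0.81 in E11.5 XY germ cells. Why these counts and medians moved was not tested.

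Leaving out 1 array at a time gave 4 to 7 calls for E11.5 and 25 to 30 and 26 to 29 for E12.5 and E13.5 supporting cells, 16 to 22 and 1 to 3 for their first XY and XX steps, 9 to 14 and 10 to 14 for the change of their sex difference, and 10 to 17 for E13.5 XY supporting cells against other lineages. In germ cells it gave 7 to 16 at E13.5, 7 to 12 and 2 to 6 for the second XY and XX steps, 0 to 1 for the first XX step, and 3 to 7 and 0 to 3 for the change of the sex difference. It gave 3 to 9 in interstitial and 2 to 17 in endothelial cells. The medians ran from -1.08 to -0.97 for E11.5 XX supporting cells and from 0.51 to 0.66 for E13.5 XY germ cells against other lineages, from 0.70 to 0.83 for E13.5 supporting cells, from 0.39 to 0.55 for their first XY step, from -0.17 to -0.03 and from -0.22 to -0.08 for their second XY and XX steps, from 0.40 to 0.58 for the change of their sex difference to E13.5, from -1.07 to -0.90 for the difference between germ and supporting cells, and from -0.48 to -0.29 for endothelial cells.

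The replicate numbers are those of the labels, and same-numbered arrays correlated at -0.31 to 0.23 over 36 pairs of sexes and at -0.17 to 0.23 over 48 pairs of stages. All 3 pairs were over 0.1 in 1 comparison, that of E12.5 germ cells, so the numbers were not taken to pair the samples. With a replicate block that comparison had 0 calls, as without it, and the change of the germ cell sex difference from E12.5 had 2. The other counts stayed within 1.5 times.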
